A study of Mus musculus with 13 samples.

Results

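Adipocyte regulators and marker genes were followed in mouse embryonic fibroblasts that had been depleted of Setdb1, treated with 5-azacytidine (5-aza), or both. The set consisted of 10 genes of the deposited expression table of 25965 gene intervals, chosen by name, with no threshold on their values: Pparg, Cebpa, Cebpb, Fabp4, Adipoq, Plin1, Lpl, Cd36, Cfd and Lep. Setdb1 is a histone H3 lysine 9 methyltransferase, and 5-aza blocks the maintenance of DNA methylation. The cells were primary female fibroblasts from E13.5 embryos that carried an Xist deletion allele on one X chromosome, which fixes the choice of the inactive X. By the paper, this allele came from Mus musculus domesticus dams, and the other X, which differs in sequence, from PGK-X sires. The cells were grown in ordinary serum medium with no fat-inducing cocktail named in the methods, transduced with retroviral hairpins and selected with puromycin. Cells given 5-aza received it for 24 h from day 3, and all were harvested on day 7. Libraries of poly(A) RNA were made from 4 groups of 3, a control or a Setdb1 hairpin, each grown without or with 5-aza. Replicates A and B carried a non-silencing hairpin in the controls and shSetdb1.4 in the Setdb1 groups, whereas replicate 1 carried a luciferase hairpin or shSetdb1.6. By the methods, Setdb1 hairpins went into cells heterozygous for a Setdb1 gene-trap allele and the non-silencing hairpin into wild-type cells, so hairpin and genotype cannot be told apart. For the luciferase hairpin no genotype is named. Nothing in the sources says that replicates came from separate embryos, and p-values may therefore measure technical spread only.

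Fat cell formation is driven by a cascade of transcription factors in which C/EBPβ acts early and induces PPARγ and C/EBPα, which then maintain each other and switch on the genes of the mature adipocyte. Those genes include a fatty acid carrier (Fabp4), a lipase that releases fatty acids from circulating lipoproteins (Lpl), a fatty acid transporter (Cd36), the coat protein of the lipid droplet (Plin1) and the secreted proteins adiponectin (Adipoq), adipsin (Cfd) and leptin (Lep). Fibroblasts treated with 5-aza are a classical system in which cells can turn into muscle, cartilage or fat cells. Several of these genes are not exclusive to fat: Lpl is made by muscle and macrophages, and Fabp4 and Cd36 by macrophages and endothelial cells.

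Since 5-aza acts on methylated CpG dinucleotides, the sequences before the start sites are shown for the regulators Pparg and Cebpa and, for contrast, the marker Adipoq, which had no reads. They are RefSeq promoters of GRCm38.p6, 250 bases ending at the base before the start site, written 5′ to 3′ on the plus strand with every CpG in capitals. The window before the first Pparg start site was chr6:115360894-115361143, that before the start site 60922 bp downstream was chr6:115421816-115422065, that of Cebpa was chr7:35119043-35119292 and that of Adipoq was chr16:23146286-23146535.
Pparg, first start site: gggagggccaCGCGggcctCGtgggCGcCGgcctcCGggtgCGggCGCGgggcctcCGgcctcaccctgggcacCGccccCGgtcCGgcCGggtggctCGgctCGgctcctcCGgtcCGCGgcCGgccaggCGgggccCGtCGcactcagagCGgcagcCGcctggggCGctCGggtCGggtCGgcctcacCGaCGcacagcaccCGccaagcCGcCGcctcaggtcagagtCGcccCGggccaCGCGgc
Pparg, last start site: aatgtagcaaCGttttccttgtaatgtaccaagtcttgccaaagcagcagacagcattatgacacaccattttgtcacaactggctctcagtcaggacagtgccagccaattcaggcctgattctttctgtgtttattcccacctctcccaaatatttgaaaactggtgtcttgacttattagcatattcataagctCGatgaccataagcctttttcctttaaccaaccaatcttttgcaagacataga
Cebpa: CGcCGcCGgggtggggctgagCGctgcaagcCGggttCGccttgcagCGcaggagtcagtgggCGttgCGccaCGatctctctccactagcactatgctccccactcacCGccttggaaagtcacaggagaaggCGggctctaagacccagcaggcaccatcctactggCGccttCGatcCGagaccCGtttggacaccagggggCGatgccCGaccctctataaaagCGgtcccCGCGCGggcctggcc
Adipoq: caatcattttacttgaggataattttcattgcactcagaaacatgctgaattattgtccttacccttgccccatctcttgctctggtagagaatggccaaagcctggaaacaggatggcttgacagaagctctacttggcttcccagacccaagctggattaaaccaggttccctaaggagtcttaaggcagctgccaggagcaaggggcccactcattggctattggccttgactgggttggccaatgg
The first Pparg window held 38 CpGs and the last one 2, against a median of 6 over the 32851 promoters of the table. Between them lay another Pparg start site with 12 CpGs. The Cebpa window held 22 CpGs and the Adipoq window 0. Among the other members with an entry, Cebpb had 41 CpGs, Lep 16, Cd36 3, Cfd 2 and Plin1 1. Promoter entries were found for 8 of the 10 members, not for Fabp4 and Lpl. The C/EBP-type motif TTGCNNAA, sought on both strands, was in 3 of these 10 windows (the last Pparg window, Plin1 and Lep) and in 9.56% of all promoters. The half-site AGGTCA of nuclear receptors, also on both strands, was in 3 windows (the other Pparg windows and Cd36) and in 14% of all promoters. These counts describe the sequence, and no methylation was measured here.

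The values of the table are log2 RPM (reads-per-million), and steps in them allowed whole reads to be recovered. Reads in genes numbered 36.4 to 51.3 M per library over the 12 libraries with a hairpin, and 1 read was worth 0.017 to 0.0239 RPM. Setdb1 itself lay at 42.7 to 46.4 RPM in the 6 control hairpin libraries and at 10.5 to 15.4 RPM in the 6 Setdb1 hairpin libraries, with no overlap. In log2 terms it fell by 1.73 ± 0.11 (SE; adjusted p = 1.52e-06) between untreated groups and by 1.76 ± 0.11 between treated ones. All 15 fibroblast markers checked were expressed and summed to 23890 to 35873 RPM. Of the 10 members, 5 passed the filter of 1 RPM in at least 3 libraries and entered the limma test over 13134 genes: Pparg, Cebpa, Cebpb, Fabp4 and Lpl. Cd36 had a few reads, and the other 4 had none.

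Per kilobase of the longest protein-coding transcript, Cebpb had the highest level of the members, with a median of 11 RPM per kb over the 12 libraries. Fabp4 (4.59), Pparg (4.01) and Lpl (3.74) followed with ranges that overlapped, and Cebpa lay at 1.71 RPM per kb. Cebpb stood above Fabp4 in 12 of 12 libraries, and Lpl above Cebpa in 12 of 12. The order of Fabp4 and Pparg held in 8 of 12 libraries and that of Pparg and Lpl in 7 of 12. Fabp4 and Lpl have annotated transcripts with retained introns, and with all annotated exons as the length Fabp4 fell to 0.917 RPM per kb, the lowest of the 5. With that length Lpl lay at 1.47 RPM per kb, below Cebpa (1.7) in 9 of 12 libraries. The choice of length therefore sets the order of the members below Cebpb, but does not touch comparisons of one gene between groups. Of the 31-base words of the same transcripts, none of Pparg, Cebpa or Fabp4 occurred in transcripts of other genes, compared with 2.26% for Lpl and 0.407% for Cebpb.

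Of the genes of the mature fat cell, Fabp4 and Lpl were expressed in every library, Cd36 was close to 0 and the other 4 were not detected. Adipoq, Plin1, Cfd and Lep had 0 reads in all 13 libraries, and a count of 0 allows up to 3 reads, which is 0.051 to 0.0716 RPM in the hairpin libraries. Cd36 had 1, 0 and 0 reads in control hairpin replicates A, B and 1, and 4, 1 and 1 reads in those with 5-aza. In the Setdb1 hairpin libraries it had 0, 4 and 0 reads, and with 5-aza 4, 4 and 1. No hairpin library thus held more than 4 reads of Cd36, and differences at this depth were not detectable. With 3 libraries a group, the exact two-sided permutation test cannot go below p = 0.1, and in the 4 comparisons of Cd36 its p lay between 0.1 and 1 (adjusted over these 4, 0.4 to 1). Neither Setdb1 depletion nor 5-aza, nor both together, was accompanied by reads of these 4 markers.

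**Figure D1:**
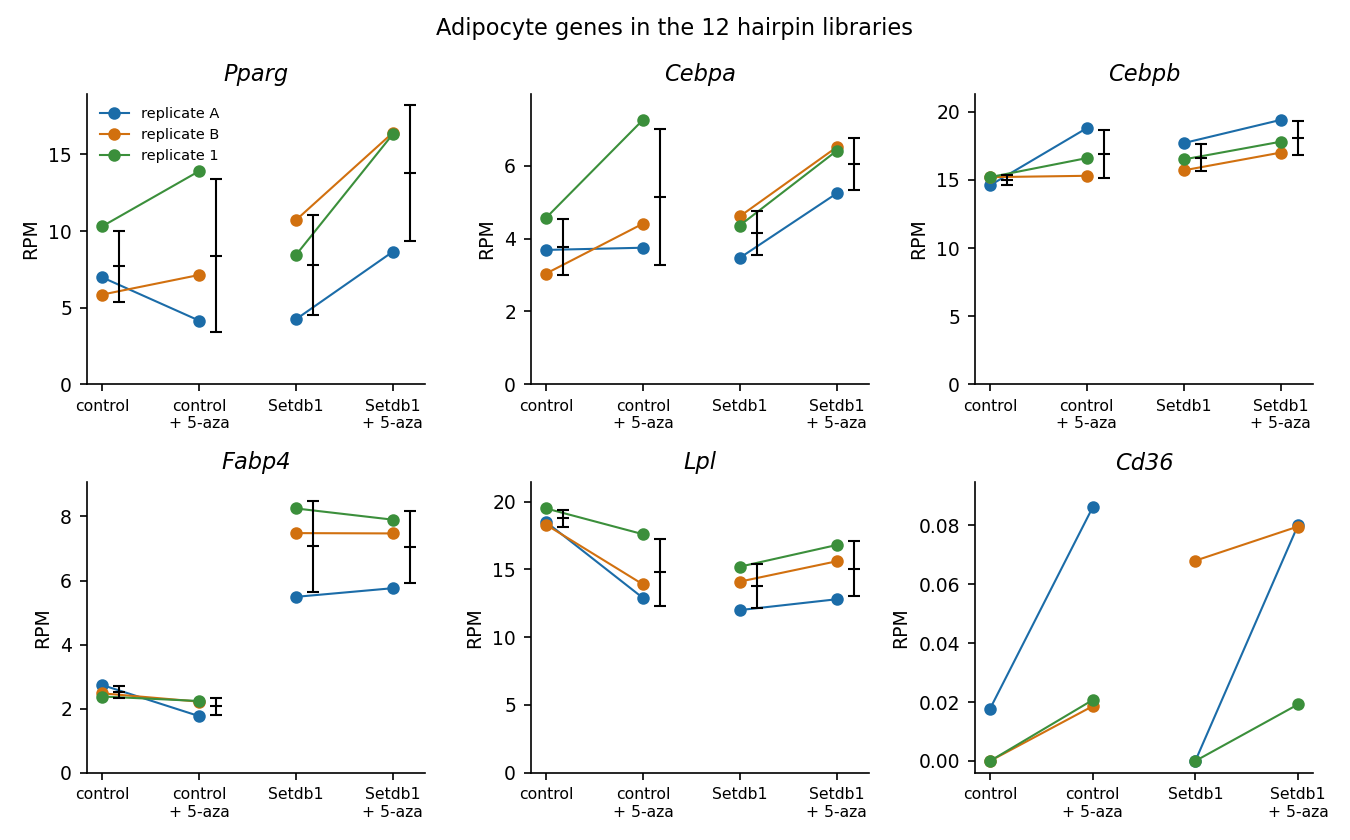
RPM of 6 adipocyte genes in the 12 hairpin libraries (y axis, a scale of its own for each gene), by group (x axis). Coloured points are libraries, lines join the libraries of the same hairpin and replicate without and with 5-aza, and black bars are the group mean ± SD (n = 3; none for Cd36, which has 0 to 4 reads). Fabp4 lies above 5 RPM in all 6 Setdb1 hairpin libraries and below 3 RPM in all 6 controls.

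Fabp4, the fatty acid binding protein of adipocytes, was the member that differed most with the Setdb1 hairpins. It had 2.74, 2.48 and 2.38 RPM in control hairpin replicates A, B and 1, and 5.49, 7.48 and 8.25 RPM in the Setdb1 hairpin libraries. With 5-aza the controls had 1.77, 2.22 and 2.24 RPM and the Setdb1 hairpin libraries 5.76, 7.47 and 7.9 RPM. Every Setdb1 hairpin library was above every control library, and replicates A were the lowest of their group with the Setdb1 hairpin. Over all genes tested, 24% were higher without overlap with the Setdb1 hairpin without 5-aza, and 24.6% with it. The level rose 2.76-fold without 5-aza (log2 fold change 1.46 ± 0.16, SE; limma, adjusted p = 0.000146) and 3.39-fold with it (1.76 ± 0.16; adjusted p = 2.95e-05). These changes ranked 55th and 32nd of the rises among the 13134 genes tested. They were called in all 16 alternative fits of each comparison, and without replicate 1, which leaves the libraries of shSetdb1.4 and the non-silencing hairpin, they were 1.30 (adjusted p = 0.0112) and 1.73 (adjusted p = 0.00253).

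Fabp4 did not pass the threshold with 5-aza in either background. Its log2 fold change was −0.30 (95% interval −0.65 to 0.06; adjusted p = 0.221) in control hairpin cells, lower in 3 of 3 libraries than in that of the same replicate label, and 0.0013 (−0.35 to 0.35; adjusted p = 0.996) in Setdb1 hairpin cells. The difference between these changes, 0.30 ± 0.23, had an adjusted p of 0.794. On the chromosome, Fabp4 (chr3:10204347-10208576, minus strand) lies in a cluster with relatives, of which Pmp2 and Fabp9 are the nearest. Of the 10 other genes within 250 kb, 3 had no read, Fabp9 and Fabp12 among them, and 7 were tested. Fabp5, the epidermal fatty acid binding protein, changed by −0.02 ± 0.06 and −0.07 ± 0.06 (log2) with the Setdb1 hairpins, and Pmp2 by −0.04 ± 0.28 and −0.15 ± 0.28. The rise of Fabp4 was thus not accompanied by its tested relatives in the cluster. Gm9833 rose by 0.30 without 5-aza (adjusted p = 0.0445) and Impa1 by 0.23 with it (adjusted p = 0.0249). With 5-aza, neighbours moved in both directions. Chmp4c rose by 0.76 in Setdb1 hairpin cells (adjusted p = 0.0137). There were falls of Fabp5, by 0.62 in control and by 0.67 in Setdb1 hairpin cells on the log2 scale (adjusted p = 8.24e-05 and 7.46e-05), and of Pmp2, by 1.54 and by 1.65 (adjusted p = 0.00334 and 0.00186). Elsewhere in the genome, the brain-type member Fabp7 rose with the Setdb1 hairpins in the presence of 5-aza (1.98 ± 0.45; adjusted p = 0.0103) and with 5-aza in Setdb1 hairpin cells (1.41 ± 0.45; adjusted p = 0.0354). Its changes with the Setdb1 hairpins without 5-aza (1.11 ± 0.45; adjusted p = 0.13) and with 5-aza in control hairpin cells (0.54 ± 0.45; adjusted p = 0.425) were not called. Fabp7 had 13 to 165 reads in a hairpin library. The heart-type member Fabp3 did not pass the threshold in any of the 4 comparisons (0.07 to 0.27).

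**Figure D2:**
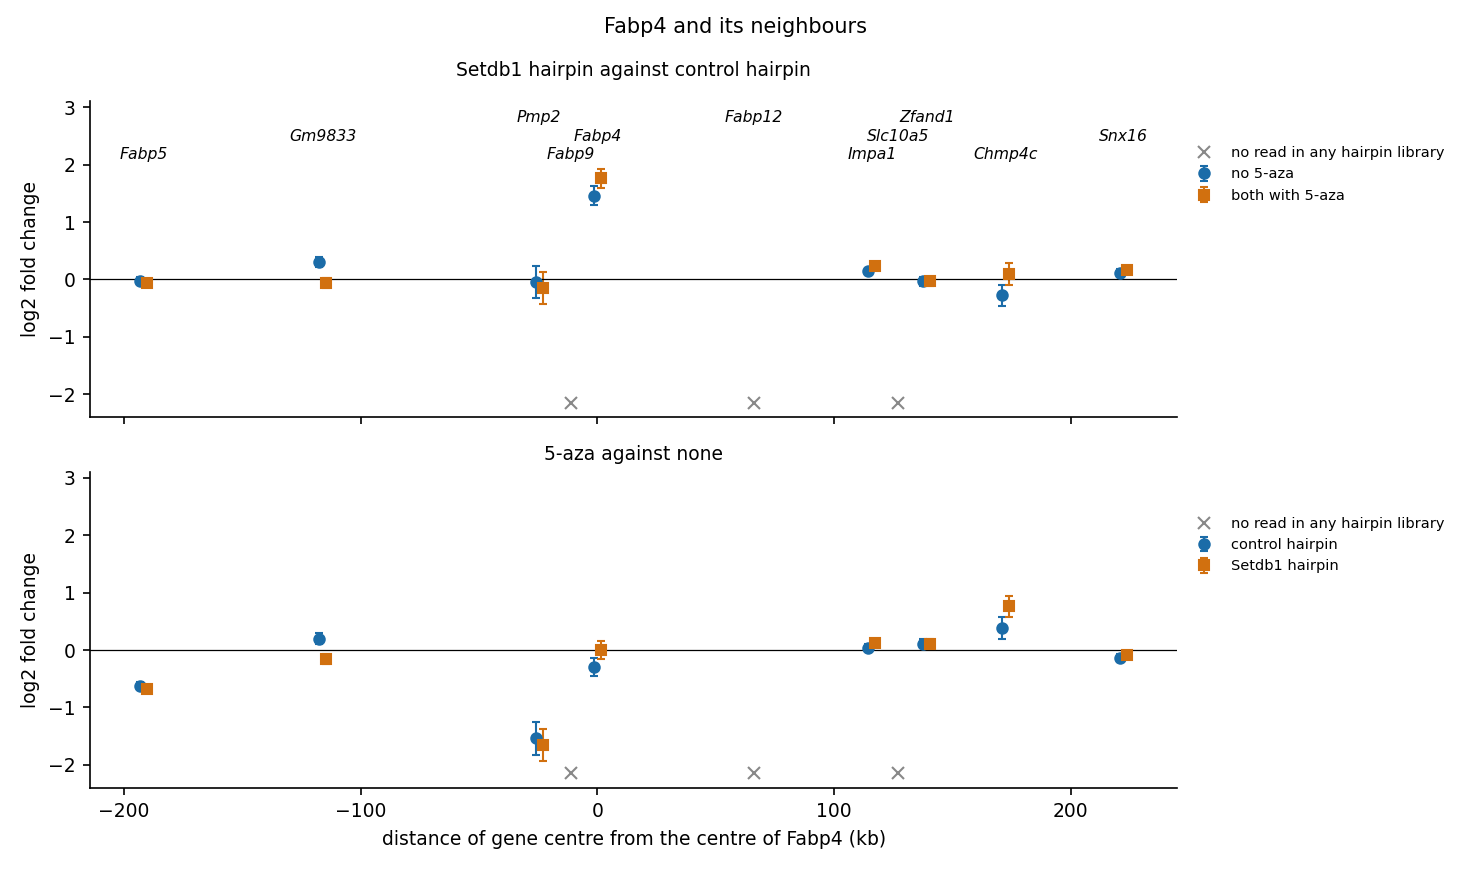
Log2 fold changes (y axis) of Fabp4 and the other genes within 250 kb, by distance of the gene's centre from that of Fabp4 in kb (x axis). Points are limma fits with their standard errors, crosses mark genes with no read in the hairpin libraries and carry no value, and the upper and lower panels give the hairpin and the 5-aza comparisons. Fabp4 stands alone above 1 in the upper panel, and Fabp5 and Pmp2 lie below 0 in the lower.

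Because Fabp4 is also made by macrophages and endothelial cells, markers of other cell types were read beside it. The 12 macrophage markers summed to 10.5 to 11.6 RPM in control and 10.7 to 11.2 RPM in Setdb1 hairpin libraries without 5-aza, and to 13.8 to 16.2 and 13.8 to 14.6 RPM with it. The 9 endothelial markers summed to 8.36 to 9.8 and 8.12 to 8.41 RPM without 5-aza, and to 6.11 to 8.62 and 6.7 to 8.14 RPM with it. Within the lists the levels were uneven. Of the macrophage markers, Csf1r had 330 to 494 reads (up to 9.85 RPM) and Cd68 had 72 to 156 in the hairpin libraries, whereas Emr1, Aif1 and Tyrobp had at most 4. Of the endothelial markers, Emcn had 52 to 208 reads (up to 4.1 RPM) and Tek 45 to 166 (up to 3.53 RPM), whereas Tie1 had at most 1 and Cldn5 none. The ranges of both sums overlapped between the hairpins, but with 5-aza the reads of single markers did not, in both directions. Higher with the Setdb1 hairpin than in control were Pecam1 (15 to 23 against 4) and Esam (23 to 33 against 10 to 20). So were Ptprc (13 to 16 against 3 to 9) and Mrc1 (23 to 41 against 7 to 14). Lower were Itgam (18 to 29 against 60 to 62), Lyz2 (19 to 27 against 46 to 52) and Emcn (52 to 59 against 74 to 82). Of all genes tested, 34.7% did not overlap in this comparison. Sums over markers of other types stood higher with the Setdb1 hairpin. The 6 chondrocyte markers summed to 77.4 to 82.4 RPM in control and 93.6 to 130 RPM in Setdb1 hairpin libraries. The 6 epithelial markers summed to 2.74 to 3.27 and 9.68 to 10.6 RPM. With 5-aza these sums were 73.6 to 93.2 against 100 to 131 RPM and 9.26 to 11.2 against 21 to 23.6 RPM. The 9 muscle markers summed to 194 to 208 and 210 to 240 RPM without 5-aza, again without overlap, and to 225 to 257 and 240 to 261 RPM with it. A few genes carried these sums: 4 of 6 chondrocyte, 2 of 6 epithelial and 3 of 9 muscle markers passed the filter. Epcam, Cdh1 and Krt14 had at most 7, 4 and 8 reads in a hairpin library. Col9a1 and Matn1 had at most 1, Myog at most 9 and Myf5 none. Of the 3 tested muscle markers, 1 was called higher with the Setdb1 hairpin without 5-aza and 1 lower with it. The part of such cells in the level of Fabp4 was not tested. In bulk RNA, more cells with a transcript and more transcript per cell cannot be told apart.

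Pparg, the nuclear receptor that is both required and sufficient for fat cell formation, varied widely between libraries of one group. It had 6.98, 5.85 and 10.3 RPM in control hairpin replicates A, B and 1, and 4.23, 10.7 and 8.42 RPM with the Setdb1 hairpin. With 5-aza it had 4.16, 7.13 and 13.9 RPM in control and 8.64, 16.4 and 16.3 RPM in Setdb1 hairpin cells. The groups overlapped in every comparison. The level was higher with 5-aza in 3 of 3 Setdb1 hairpin replicates, by 1.03, 0.62 and 0.95 on the log2 scale, but between control libraries of the same label the differences were −0.75, 0.29 and 0.43. Fitted over groups, the change with 5-aza in Setdb1 hairpin cells was 0.87 ± 0.44 (95% interval −0.09 to 1.83; adjusted p = 0.156). With a block for each hairpin and replicate label, fitted over all 12 libraries, it was 0.87 at an adjusted p of 0.00343. The Setdb1 hairpin libraries of the same replicate label deviated together without and with 5-aza (correlations 0.634, 0.413 and 0.472), which is why the blocked value is given. Replicate 1 carried shSetdb1.6 and A and B shSetdb1.4, so a shared hairpin and a shared culture cannot be told apart here. The interaction, 0.88 ± 0.62, had an adjusted p of 0.794. The Setdb1 hairpin alone gave −0.05 ± 0.44, and with 5-aza in both groups 0.83 ± 0.44 (adjusted p = 0.201). The last value was called without control hairpin replicate 1 with 5-aza, the highest of its group (1.28, adjusted p = 0.0422). It was also called with another block, the replicate label shared across hairpins (adjusted p = 0.0336), although labels did not pair control with Setdb1 hairpin libraries throughout.

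Cebpa, the partner of Pparg in the maintenance of the adipocyte state, followed Pparg across libraries with a Pearson correlation of 0.88 (Spearman 0.90) over the 12 libraries, which share hairpins and treatment. It had 3.69, 3.04 and 4.57 RPM in control hairpin cells and 3.75, 4.41 and 7.26 RPM with 5-aza. In Setdb1 hairpin cells it had 3.47, 4.61 and 4.36 RPM, and 5.24, 6.51 and 6.41 RPM with 5-aza. All 6 libraries with 5-aza were higher than that of the same hairpin and label without it, by 0.02 to 0.67 on the log2 scale. The Setdb1 hairpin groups without and with 5-aza did not overlap, but 31.2% of all genes tested were higher without overlap there. The change was 0.55 ± 0.22 in Setdb1 hairpin cells (95% interval 0.07 to 1.03; adjusted p = 0.0825, and 0.00307 with the block). In control hairpin cells it was 0.41 ± 0.22 (adjusted p = 0.219, and 0.0187 with the block, although control libraries were not taken as paired). The difference between the backgrounds, 0.14 ± 0.31, did not pass the threshold (adjusted p = 0.911). With the Setdb1 hairpin Cebpa changed by 0.15 ± 0.22 without and 0.29 ± 0.22 with 5-aza. The latter was called without control hairpin replicate 1 with 5-aza (0.57; adjusted p = 0.0384).

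Cebpb, which starts the cascade, was the steadiest member. It lay between 14.6 and 19.4 RPM in all 12 libraries. Controls had 14.6, 15.2 and 15.2 RPM, and 18.8, 15.3 and 16.6 RPM with 5-aza. Setdb1 hairpin cells had 17.7, 15.7 and 16.5 RPM, and 19.4, 17 and 17.8 RPM with 5-aza. The level was higher with 5-aza in 6 of 6 such pairs of libraries, by 0.01 to 0.37 on the log2 scale, but no comparison passed the threshold. The fitted changes were 0.10 to 0.17, with adjusted p between 0.139 and 0.387. The 95% intervals of the 4 comparisons reached from −0.07 to 0.34.

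Lpl, the lipoprotein lipase, was the other member called, and in the opposite direction to Fabp4. It had 18.5, 18.3 and 19.5 RPM in control hairpin cells and 12, 14.1 and 15.2 RPM with the Setdb1 hairpin. With 5-aza it had 12.9, 13.9 and 17.6 RPM in control and 12.8, 15.6 and 16.8 RPM in Setdb1 hairpin cells. The untreated controls thus stood above all 9 other libraries. Over all genes tested, 10.4% were lower without overlap with the Setdb1 hairpin without 5-aza. With 5-aza in control hairpin cells the share was 12.7%. The level fell by 0.45 on the log2 scale with the Setdb1 hairpin without 5-aza (SE 0.13; adjusted p = 0.0354), and leaving out any 1 of the 6 libraries ended the call (adjusted p 0.053 to 0.116, changes of −0.53 to −0.36). With 5-aza in both groups the difference was 0.03 ± 0.13 (95% interval −0.25 to 0.30). With 5-aza, Lpl changed by −0.35 ± 0.13 in control hairpin cells (adjusted p = 0.0693). In Setdb1 hairpin cells the value was 0.13 ± 0.13 (adjusted p = 0.455). The former passed the threshold when libraries were centred on their medians (−0.40, adjusted p = 0.0338) or quantile normalised (−0.40, adjusted p = 0.0367). It also passed without control hairpin replicate 1 with 5-aza (−0.48, adjusted p = 0.0205). With the replicate label as a block its adjusted p was 0.0029, although the control libraries were not taken as paired.

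In counts, 2 of the 5 tested members were called with the Setdb1 hairpin without 5-aza, 1 higher (9.01% of all genes tested were called higher) and 1 lower (3.4%). With 5-aza in both groups 1 was called, higher, against 14.5% of all genes called higher and 5.37% lower. None was called with 5-aza in control hairpin cells (18.8% of all genes were called in either direction) or in Setdb1 hairpin cells (28.9%) by limma, and the last count became 2, Pparg and Cebpa, with the replicate label as a block. The count in control hairpin cells became 2 with that block as well, Cebpa and Lpl, although control libraries were not taken as paired. At an unadjusted p under 0.05 these comparisons held 2 (Cebpb and Lpl) and 1 (Cebpa) of the 5, against 34.1% and 41.5% of all genes. The interaction called no member either, against 0.388% of all genes. At an unadjusted p under 0.05 it held 1 (Lpl), against 5.34% of all genes. With voom on the recovered reads the counts of called members were the same. The share of higher calls over all genes depended on the scaling: it was 71.6% to 74% in the 4 comparisons, and 48% to 52.3% after centring each library on its median.

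**Figure D3:**
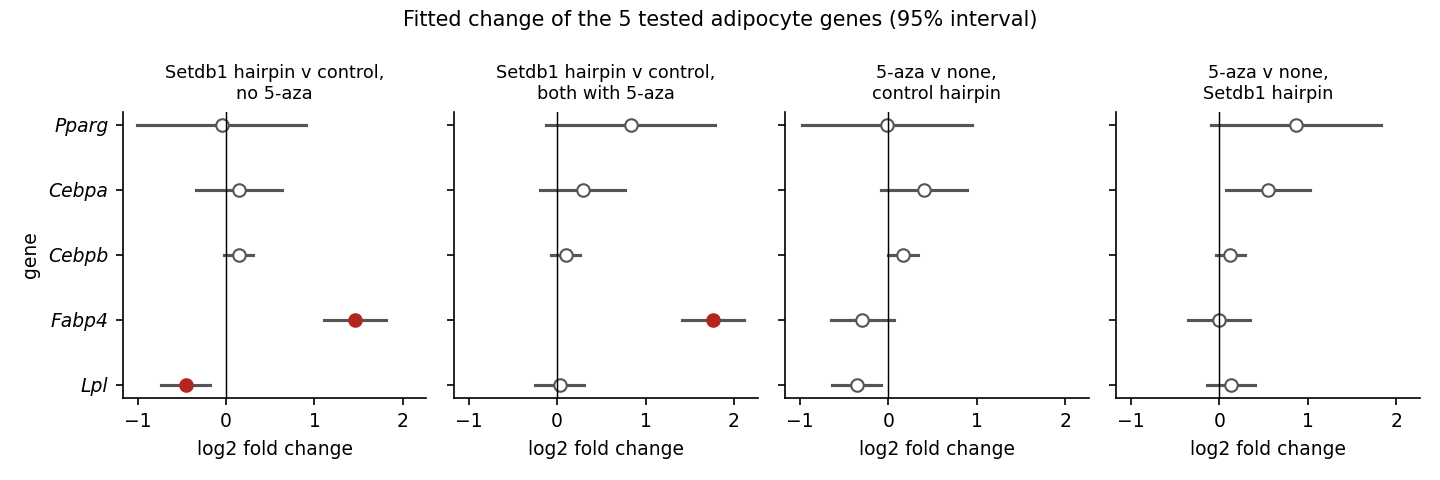
Log2 fold changes (x axis) of the 5 tested adipocyte genes in the 4 comparisons, from the limma fit over 12 libraries. Points are estimates, lines are 95% intervals and filled points have an adjusted p under 0.05. Fabp4 is filled in both hairpin comparisons, Lpl in the first only, and the intervals of Pparg are the widest.

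Other transcription factors of the pathway were called in both directions. Of 28 adipogenic regulators listed beside the members, 22 were tested, and 5 others, among them Klf15 and the coactivator Ppargc1a, stayed below the filter. With the Setdb1 hairpin, 2 were higher without 5-aza (9.09%, against 9.01% of all genes) and 1 higher and 1 lower with it (4.55% each, against 14.5% and 5.37%), and the medians were 0.008 and 0.003 against 0.031 and 0.047 for all genes. The medians turned negative after median centring (−0.041 and −0.057). Prdm16, the coregulator of brown fat identity, rose from 3.68 ± 0.167 to 5.46 ± 0.455 RPM (SD, n = 3; log2 fold change 0.57 ± 0.08, adjusted p = 0.000667), and from 3.63 ± 0.0478 to 5.55 ± 0.326 RPM with 5-aza (0.61 ± 0.08, adjusted p = 0.000342). Cebpg, another C/EBP factor, rose by 0.21 without 5-aza (adjusted p = 0.0396), a call that was lost after median centring (0.124) and quantile normalisation (0.108). With 5-aza in both groups, Klf9 was lower with the Setdb1 than with the control hairpin, at 40.5 ± 2.88 against 46.8 ± 2.06 RPM (adjusted p = 0.0191).

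With 5-aza, 3 regulators were higher and 1 lower in control hairpin cells (18.2% in either direction, against 18.8% of all genes). With the Setdb1 hairpin 1 was higher (4.55%, against 21.4% of all genes) and 4 were lower (18.2%, against 7.51%). After median centring the counts in control hairpin cells were 1 higher and 3 lower, against 1285 and 1335 of the 13134 genes tested. Rxra, which pairs with PPARγ on DNA, rose in both, from 64 ± 1.12 to 72.8 ± 3.47 RPM (0.18 ± 0.04, adjusted p = 0.00779) and from 60.2 ± 1.3 to 74.4 ± 1.04 RPM (0.31 ± 0.04, adjusted p = 0.000452). Med1, a Mediator subunit that binds PPARγ, was lower in control hairpin cells, with 102 ± 2.89 RPM without and 91.1 ± 4.33 RPM with 5-aza (adjusted p = 0.0207). It was lower in Setdb1 hairpin cells as well (log2 fold change −0.18, adjusted p = 0.0091). Stat5a rose by 0.21 in control hairpin cells (adjusted p = 0.0272) but not after median centring (0.0538). With the Setdb1 hairpin, Egr2 fell from 28 ± 8.23 to 12.4 ± 2.58 RPM (adjusted p = 0.0145) and Klf9 from 49.9 ± 1.74 to 40.5 ± 2.88 RPM (adjusted p = 0.00261).

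All 22 listed inhibitors of fat cell formation were tested. With the Setdb1 hairpin 2 were higher and 1 lower without 5-aza (9.09% and 4.55%, against 9.01% and 3.4% of all genes). With 5-aza 6 were higher (27.3%, against 14.5%) and 3 lower (13.6%, against 5.37%). After median centring the latter counts became 4 and 5, against 1199 higher and 1264 lower of the 13134 genes tested. Wnt10b, a Wnt ligand that holds precursors undifferentiated, rose from 1.2 ± 0.164 to 2.24 ± 0.533 RPM (0.89 ± 0.18, adjusted p = 0.00793) and from 1.13 ± 0.153 to 2 ± 0.169 RPM with 5-aza (adjusted p = 0.00807). Runx2, the regulator of bone cells, rose from 36.6 ± 0.347 to 44 ± 2.23 RPM without 5-aza (adjusted p = 0.0141). With 5-aza in both groups Runx2 rose too, by 0.22 on the log2 scale (adjusted p = 0.0212). Gata2 rose from 10.9 ± 2.63 to 17.4 ± 3.16 RPM in the latter comparison (adjusted p = 0.0314). Lower levels were found for Wnt5a without 5-aza (207 ± 7.59 and 182 ± 8.16 RPM, adjusted p = 0.0399; 0.0549 after quantile normalisation). With 5-aza, Wisp2 had 123 ± 4.11 RPM in control and 81.3 ± 18.5 RPM in Setdb1 hairpin cells (adjusted p = 0.00443), and the zinc finger protein Zfp521 34.2 ± 4.83 and 23.1 ± 4.85 RPM (adjusted p = 0.00939).

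In control hairpin cells 1 inhibitor was higher with 5-aza, Smad3 (0.24, adjusted p = 0.0336; 0.0974 after median centring), and 1 lower, Zfp521, from 47.1 ± 0.514 to 34.2 ± 4.83 RPM (adjusted p = 0.0243). Together they made up 9.09% of the list, against 18.8% of all genes. In Setdb1 hairpin cells 1 was higher and 4 were lower (4.55% and 18.2%, against 21.4% and 7.51% of all genes). Gata3 rose from 10.3 ± 1.92 to 15.4 ± 1.41 RPM (adjusted p = 0.0148), Wisp2 fell from 135 ± 11.2 to 81.3 ± 18.5 RPM (adjusted p = 0.00133), and Zfp521 fell from 36.9 ± 2.6 to 23.1 ± 4.85 RPM (adjusted p = 0.00292). The medians of the list with 5-aza were −0.082 and −0.077, against 0.042 and 0.058 for all genes.

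Of 46 genes of lipid storage and adipocyte function, 33 were tested and 13 lay below the filter. Among the latter, 6 had no read in any hairpin library, including the droplet proteins Cidea and Cidec, the uncoupling protein Ucp1 and the secreted Retn. The counts below are those of the 33 tested. With the Setdb1 hairpin 1 was higher and 3 lower without 5-aza (3.03% and 9.09%, against 9.01% and 3.4% of all genes), and 2 higher and 3 lower with it (6.06% and 9.09%, against 14.5% and 5.37%). Plin2, the lipid droplet protein of most cell types, rose from 77.8 ± 0.0647 to 96.4 ± 1.69 RPM (0.31 ± 0.05, adjusted p = 0.00277) and from 89.3 ± 5.08 to 122 ± 8.17 RPM with 5-aza (0.45 ± 0.05, adjusted p = 0.000188). Plin3, its relative, rose by 0.15 with the Setdb1 hairpin where both groups had 5-aza (adjusted p = 0.0145, and 0.0748 after median centring). Vldlr, a lipoprotein receptor, fell from 38.6 ± 1.97 to 31.2 ± 1.59 RPM (adjusted p = 0.00839) and from 38.7 ± 1.84 to 27.1 ± 1.94 RPM with 5-aza (adjusted p = 0.000258). Cav1, the caveolar coat protein, fell from 987 ± 31.4 to 821 ± 37.1 RPM without 5-aza (adjusted p = 0.00377). Its log2 fold change with 5-aza in both groups was −0.28 (adjusted p = 0.00174). Lmf1, which is needed for the folding of lipoprotein lipase, had 18.4 ± 0.628 RPM in control and 15 ± 0.859 RPM in Setdb1 hairpin cells with 5-aza (adjusted p = 0.00526). Without 5-aza the log2 fold change of Lmf1 was −0.23 (adjusted p = 0.026).

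With 5-aza, 8 genes of this list were higher and 3 lower in control hairpin cells (33.3% in either direction, against 18.8% of all genes). In Setdb1 hairpin cells 13 were higher (39.4%, against 21.4%) and 4 lower (12.1%, against 7.51%). The medians were 0.113 and 0.152, against 0.042 and 0.058 for all genes, and higher calls fell to 4 and 9 after median centring. Over all 13134 genes, higher calls fell with that centring as well, from 1769 to 1285 and from 2805 to 1833. In control hairpin cells Bscl2, the seipin of lipid droplet assembly, rose from 13.6 ± 1.66 to 18.2 ± 1.49 RPM (adjusted p = 0.00518). There the phosphatidate phosphatase Lpin1 rose from 17.5 ± 1.87 to 22.5 ± 1.88 RPM (adjusted p = 0.019). Both also rose in Setdb1 hairpin cells, by 0.42 and 0.44 on the log2 scale (adjusted p = 0.00412 and 0.00568). In Setdb1 hairpin cells Plin4, a droplet protein of adipocytes, rose from 2.92 ± 1.14 to 7.21 ± 1.15 RPM (1.38 ± 0.31, adjusted p = 0.00729). Dgat2, an enzyme of triglyceride synthesis, rose there from 2.77 ± 0.169 to 3.8 ± 0.361 RPM (adjusted p = 0.0342; 0.101 after quantile normalisation). The monoglyceride lipase Mgll fell in both backgrounds, from 36.7 ± 3.61 to 22.9 ± 2.31 RPM with the control hairpin (adjusted p = 0.000662) and from 33.1 ± 3.72 to 20.8 ± 0.789 RPM with the Setdb1 hairpin (adjusted p = 0.000715). No gene of the 3 lists passed the threshold in the interaction by limma.

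**Figure D4:**
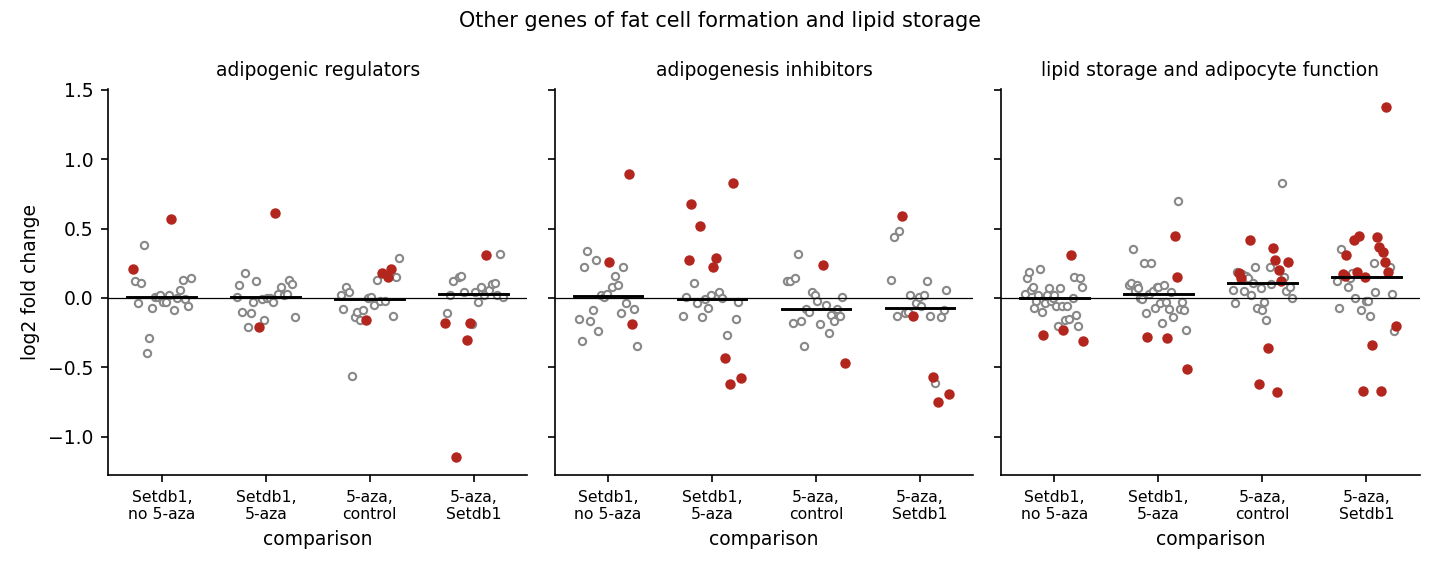
Log2 fold changes (y axis) of the tested genes of 3 lists in the 4 comparisons (x axis): hairpin effect without and with 5-aza, then 5-aza effect in control and in Setdb1 hairpin cells. Each point is 1 gene, filled points have an adjusted p under 0.05 and horizontal lines are list medians. The lipid list has its highest median, 0.152, with 5-aza in Setdb1 hairpin cells, where Plin4 is the uppermost point.

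Likeness across the 12 hairpin libraries was described by the Pearson correlation of log2 RPM, with the genes most alike drawn from the 13134 tested. The libraries share hairpins and treatment, so no p is given. Pparg was most alike to Id2 (0.989), Dlx2 (0.984) and Smad9 (0.983). Cebpa was most alike to Mrpl43 (0.978), Pex6 (0.966) and Ppm1f (0.963). For Fabp4 the genes were Ezr (0.993), Apln (0.992) and 9430015G10Rik (0.987), and none of the other members reached a correlation above 0.43 with it. Lpl was nearest to Polh (0.928), Raly (0.927) and Sdpr (0.914), and Cebpb to AI480653 (0.935), Rrad (0.928) and Pde10a (0.926). Among the members themselves, Cebpb and Lpl ran in opposite directions (−0.65; Spearman −0.69), and Pparg and Cebpa were the most alike pair.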

How the data were processed

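Poly(A) RNA was sequenced in 13 libraries, of which 12 belong to 4 groups of 3. The authors deposited a table of log2 RPM values per gene, and the labels name CASAVA 1.4 and mm10; how reads were counted and summarised is not given in the sources used here. Since the values are log2 and not counts, genes that reached 1 RPM in 3 or more of the 12 libraries were tested with limma 3.58.1 (lmFit and eBayes with trend, R 4.3.3) over all 12 libraries. Tests were two-sided with Benjamini-Hochberg adjustment over all 13134 genes, and an adjusted p under 0.05 was called. Whole reads were recovered from the steps of the values and used for the depth, for Cd36 and for a voom fit. Group values are means ± SD of RPM (n = 3), and limits for a count of 0 cover counting error only.

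The members and lists were chosen with earlier results of these data known. All members are named. From each list and comparison, the 2 largest rises and the 2 largest falls among called genes whose groups did not overlap are named, and for each tested member the 3 genes most correlated with it. Neighbours and relatives of Fabp4 were chosen after its values were seen. Libraries of the same replicate label without and with 5-aza were checked for pairing: their deviations from group means correlated at 0.634, 0.413 and 0.472 in Setdb1 hairpin cells and at 0.149, 0.0999 and 0.586 in control hairpin cells, so only the former were taken as paired. In the hairpin comparisons the replicate block was the label shared across hairpins. In the 5-aza comparisons and the interaction it was each hairpin and label together. The latter block was nevertheless fitted over all 12 libraries. It therefore joined control libraries of the same label too, and their spread entered the blocked adjusted p of Pparg and Cebpa. Gene models were GENCODE vM21. The fit was tested on simulated data for the Setdb1 comparison without 5-aza: over 13071 genes, 100% of genes changed by a log2 of 1.5 were called, and 70% and 73.5% of those raised and lowered by 0.5. Alternatives were another pseudocount, filter, scaling, voom, the groups compared alone, a replicate block and leaving out libraries. The library with no named hairpin entered no comparison.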

Additional observations from a re-analysis of the deposited data

Results flagged for a closer look

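Lpl lay in opposite directions with 5-aza in the 2 backgrounds; no difference between them was called. Against the library of the same label, it was lower in 3 of 3 control hairpin libraries and higher in 3 of 3 Setdb1 hairpin libraries. The interaction was 0.48 ± 0.18 (limma; unadjusted p = 0.0188, adjusted p = 0.794).

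Cd36 reached 4.12 RPM (84 reads) in the 5-aza library for which the labels name no hairpin, which is outside all comparisons. In the 12 hairpin libraries its highest value was 0.0861 RPM.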

How the results depend on the processing

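Of 467 values of single genes under alternatives, 423 kept their direction and side of the threshold, 16 newly passed it, 7 no longer did and 21 reversed. Called members with the Setdb1 hairpin without 5-aza went from 2 to 1 with no filter on low values and to 1 to 2 when libraries were left out. With 5-aza in both groups they went from 1 to 2 with a replicate block by label and to 1 to 3. With 5-aza in control hairpin cells they went from 0 to 1 with median centring or quantile normalisation, to 2 with the label as a replicate block (Lpl, adjusted p = 0.0029, and Cebpa, 0.0187), although the control libraries were not taken as paired, to 1 with that block in these groups alone (an alternative chosen after seeing the data) and to 0 to 1 without single libraries. In Setdb1 hairpin cells they went from 0 to 1 with these groups alone and to 2 with the block in either fit, and stayed at 0 without single libraries. The interaction went from 0 to 1 with the block (Lpl, adjusted p = 0.0357). Over all genes, the 1630 calls of the first comparison became 470 to 1443 without single libraries. The 2609 of the second became 1548 with its own groups alone and 1279 to 3428. The 2471 calls with 5-aza in control hairpin cells became 3902 with the block and 1260 to 2451. The 3792 in Setdb1 hairpin cells became 6092 with the block in these groups alone and 2191 to 3670. The 51 of the interaction became 19 with a filter of 5 RPM, 169 with the block and 8 to 43. The block in Setdb1 hairpin cells changed no call of a member other than Pparg and Cebpa. Replicate labels did not pair control with Setdb1 hairpin libraries throughout. For replicates A, B and 1 the correlations were 0.19, −0.470 and 0.0979 without 5-aza, and 0.686, −0.0197 and 0.484 with it.

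Reversals were of values near 0. Lpl with the Setdb1 hairpin and 5-aza went from 0.03 to −0.03 (median centring), −0.04 (quantile) and −0.06 to 0.16. Pparg with 5-aza in control hairpin cells went from −0.01 to 0.01 with log2(RPM + 1) and −0.46 to 0.41. Fabp4 with 5-aza in Setdb1 hairpin cells went from 0.0013 to −0.06 (median centring), −0.09 (quantile) and −0.17 to 0.14. Without single libraries, Pparg with the Setdb1 hairpin alone ranged from −0.33 to 0.34, and the interactions of Cebpa and Cebpb from −0.06 to 0.42 and from −0.12 to 0.03. The cause was not tested. At 1 read per 0.017 to 0.0239 RPM, Cd36 and the 4 members without reads were beyond the depth of these libraries.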

Other observations

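The library treated with 5-aza and without a named hairpin, whose name refers to PGK, held 17.4 M reads in genes, fewer than any hairpin library. Whether its cells came from the same cross as the hairpin cells is not stated in the sources used here. It had 2.94 RPM of Pparg, 4.91 of Cebpa, 17.5 of Cebpb, 3.04 of Fabp4, 11.1 of Lpl and 47 of Setdb1. Pparg and Lpl were below, and Cebpa, Cebpb and Fabp4 within, the range of the 12 hairpin libraries. Against the control hairpin libraries alone, Fabp4 lay above their range of 1.77 to 2.74 RPM, and the other tested members stood as before. Adipoq, Plin1, Cfd and Lep had 0 reads there, which allows up to 0.147 RPM. Its 12 macrophage markers summed to 160 RPM against at most 16.2 RPM in any hairpin library, with Lyz2 at 55.9, Laptm5 at 22, Csf1r at 21.8, Cd68 at 16.7 and Emr1 at 5.4 RPM. The part of such cells in its Cd36 and Fabp4 levels was not tested.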
